A study of Drosophila melanogaster with 10 samples.

Results

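The genes described here drive and police the cell division cycle in Drosophila melanogaster S2 cells: the DNA replication licensing and nucleotide supply genes, the cyclins with their kinases and E2F factors, and the mitotic kinase and spindle checkpoint genes. They were chosen by name, as 38 gene symbols, and each was represented by the probe set with the highest mean among those annotated with that gene alone. Of the 38, 26 had such a probe set, and all 26 had a mean log2 value above 4, the level set for testing. They comprised 12 of 16 replication genes, 8 of 13 cyclin, Cdk and E2F genes and 6 of 9 mitotic genes, among 6721 genes and unnamed probe sets tested in all. Mcm7, Orc6, geminin, RnrS, CycA, Cdk1, E2f1, dap, stg, aurA, polo and BubR1 were not analysed here.

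The study reduced JIL-1, a kinase that phosphorylates serine 10 of histone H3 in interphase, by RNA interference, and measured total RNA on single-colour arrays. All 10 samples were S2 cells, a cell line of embryonic, blood cell-like origin, given 10 µg of double-stranded RNA (dsRNA). The dsRNA was added for 1 h without serum, and cells were divided on day 3 and harvested on day 7. In batch A, 3 control samples received dsRNA against GST and 2 samples dsRNA against the 5' part of JIL-1, and in batch B, 2 control samples received dsRNA against EGFP and 3 samples dsRNA against the 3' part of JIL-1. GST and EGFP are sequences foreign to the fly, so the controls carried dsRNA as well, and each batch had its own control and its own JIL-1 dsRNA. The series calls the samples biological replicates without saying how the cultures were separated, so the p-values measure the spread between these samples.

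Before a cell copies its DNA, the origin recognition complex (Orc proteins), Cdc6 and the Cdt1 protein encoded by dup load the Mcm helicase onto chromatin, and PCNA and the ribonucleotide reductase subunit RnrL then serve DNA synthesis. Cyclin-dependent kinases time these steps, with E2F factors and the retinoblastoma protein Rbf governing the transcription of many S phase genes. In mitosis, Aurora B (aurB) is the kinase that phosphorylates serine 10 of histone H3, the same residue that JIL-1 phosphorylates in interphase. It works in the chromosomal passenger complex with Incenp, while Bub1, Bub3 and mad2 delay anaphase until chromosomes are attached and fzy activates the anaphase-promoting complex.

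JIL-1, on chromosome arm 3L, lay at 5.79, 5.95 and 5.66 on the log2 scale in the batch A controls and at 4.35 in both batch A JIL-1 RNAi samples. In batch B it lay at 7.53 and 7.34 in the controls and at 5.66, 5.78 and 5.84 after JIL-1 RNAi. The groups did not overlap within either batch, but the batch A controls overlapped with the batch B JIL-1 RNAi samples. JIL-1 fell by 1.56 on the log2 scale, a 2.95-fold lower level (SE 0.08, limma with a term for batch, Benjamini-Hochberg adjusted p = 5.32e-07). Without a term for batch the change was -1.26 with limma's adjusted p = 0.153. All changes below are log2 differences of JIL-1 RNAi minus control from the same fit of 5 against 5 samples, with limma p-values adjusted over all 6721.

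The array medians of the tested values ran from 9.22 to 9.32 in batch A and from 9.38 to 9.42 in batch B, so they divided by batch. Precision is limited by how many arrays there were. All 7 hemocyte markers examined, such as Hml and srp, had means above 4, with a log2 summed level of 15.01 to 15.44 in the controls and 15.06 to 15.18 after JIL-1 RNAi. Within that list NimC1 changed by -2.14, Sr-CI by -1.30, drpr by -0.75, eater by -0.36 and Hml by -0.29, while Pxn changed by 0.42 and srp by 0.09. The 2 fat body markers and the 3 follicle markers had means under 4, as did 1 of 3 neuron markers, 1 of 2 muscle markers and the germ line marker bam. The mean of bam was 2.27 in the controls and 4.47 after JIL-1 RNAi. The part of these markers in the results below was not tested.

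aurB, on arm 2L, was nearly level between the groups. It lay at 9.00, 9.02 and 9.18 in the batch A controls, against 9.13 and 9.03 after JIL-1 RNAi. In batch B it lay at 9.51 and 9.36 in the controls, against 9.57, 9.55 and 9.41 after JIL-1 RNAi. The groups overlapped in both batches. The change was 0.04 (SE 0.06, limma adjusted p = 0.608), with a 95% interval from -0.09 to 0.18, with 0.01 within batch A and 0.08 within batch B. Between the control samples of the batches aurB differed by 0.37 (SE 0.09, limma adjusted p = 0.00511), more than the upper end of that interval. Incenp, the scaffold that activates Aurora B, changed by 0.06 (SE 0.06, limma adjusted p = 0.456). It lay between 9.85 and 10.02 in the batch A controls and at 10.04 and 10.01 after JIL-1 RNAi. The batch B controls lay at 10.59 and 10.54 and the batch B JIL-1 RNAi samples between 10.46 and 10.69, so the groups overlapped there too. Arrays measure transcripts, so the activity of the kinase was not measured.

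**Figure D1:**
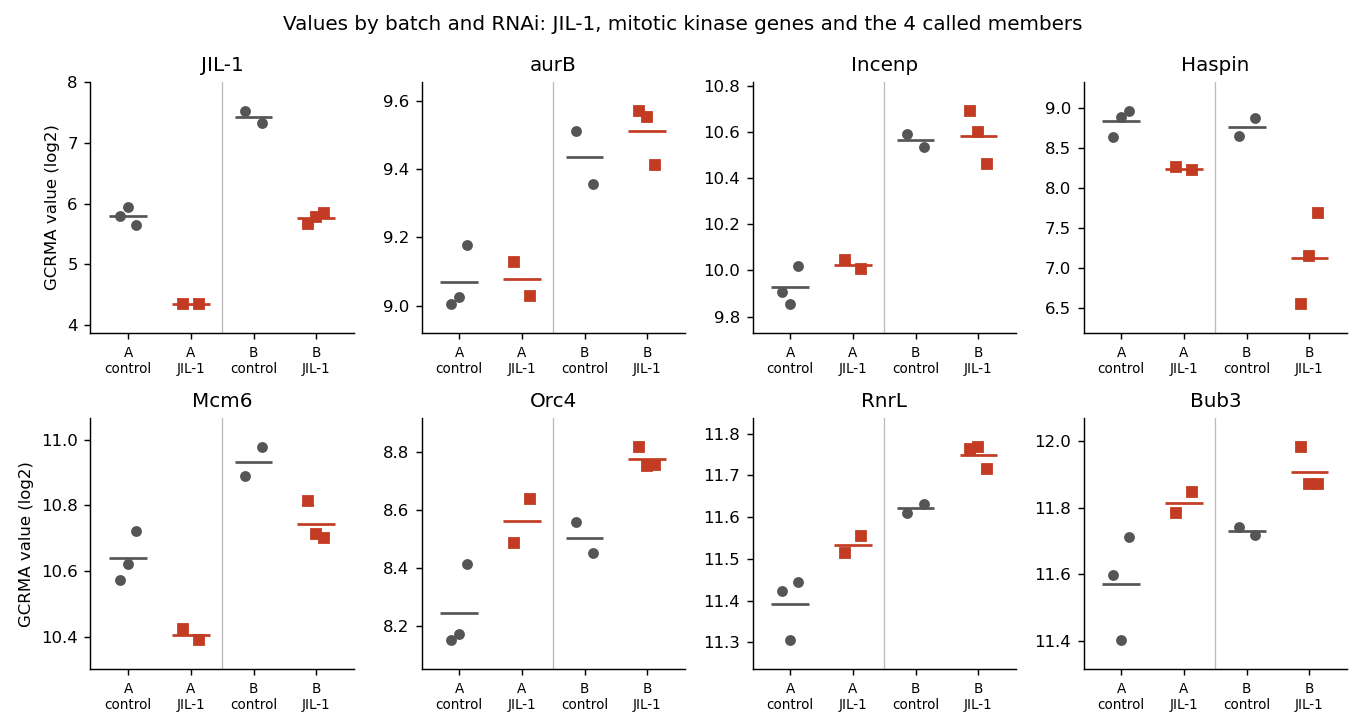
GCRMA values on the log2 scale by batch and group (grey circles, control; red squares, JIL-1 RNAi; each point 1 sample, horizontal lines group means) for JIL-1, aurB, Incenp, Haspin and the 4 called members Mcm6, Orc4, RnrL and Bub3. JIL-1 is lower after RNAi in both batches while aurB and Incenp overlap between groups, and each panel has its own axis range that does not start at 0.

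Few of the 26 genes passed the threshold, and the estimated changes were small. The intervals of the limma fit reached -0.50 at the lowest and 0.61 at the highest over these genes, so changes larger than the estimates were not excluded. Mcm6, Orc4, RnrL and Bub3 passed the threshold, 4 of 26 (15.4%) where 35.7% of all tested did. Of these, 3 rose and 1 fell, against 20.8% rises and 14.9% falls among all tested. The largest change of any member, that of CycE, was 0.30 (1.23-fold), a size that 23.5% of all tested exceeded. The median change was 0.07 over the 26 and 0.05 over all tested, and the median size regardless of sign was 0.10 against 0.16. No member was called at a minimum of 1.5-fold, a rule that 7.01% of all tested met. In RNA from whole cultures, a different share of cells in a phase of the cycle and a different amount of RNA per cell cannot be told apart. Leaving out 1 sample gave between 2 and 5 calls. It gave 2 without JIL-1 RNAi replicate 1, 2 or 3 or control replicate 4, and 5 without JIL-1 RNAi replicate 5. Over all 6721 tested, such fits gave 1761 to 2262 calls, against 2397 in the full fit. Without a term for batch none of the 26 passed limma's threshold, where 501 of all 6721 tested did.

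**Figure D2:**
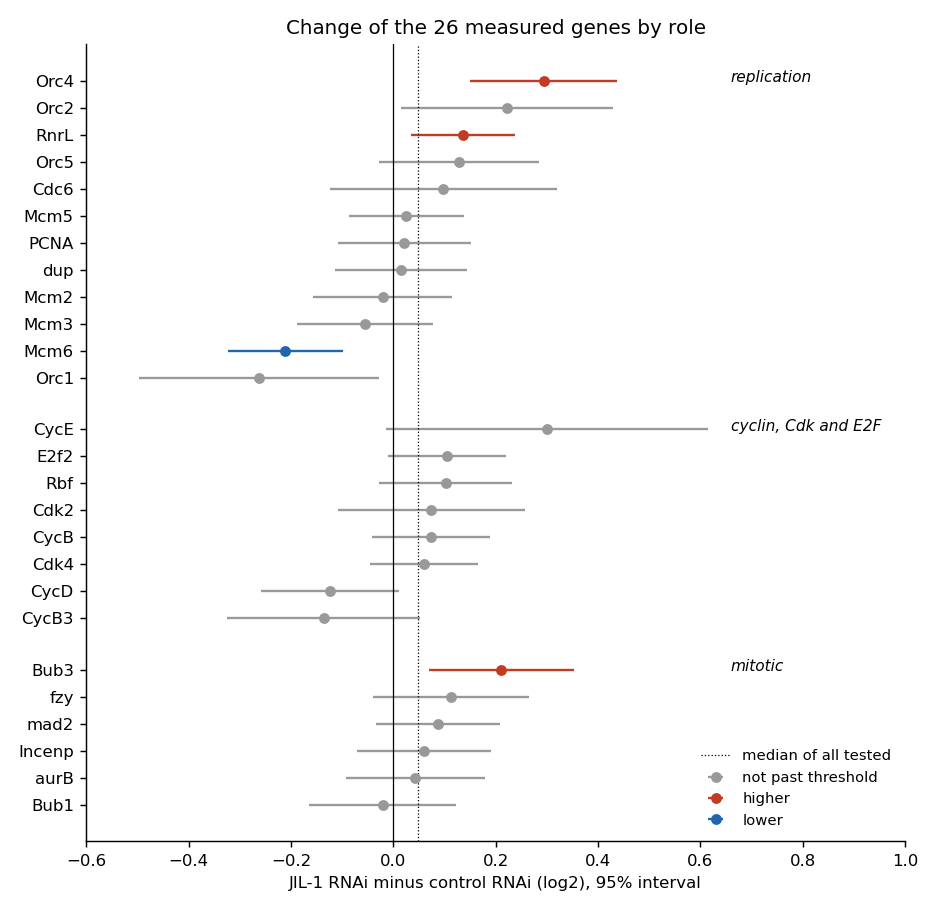
Change of the 26 measured genes (log2, JIL-1 RNAi minus control RNAi, horizontal axis) with 95% intervals from the limma fit, ordered by role and size; red and blue mark genes past the adjusted threshold and the dotted line is the median of all tested. Mcm6 is called on the lower side, and Orc4, RnrL and Bub3 on the higher side.

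Among the replication genes, 2 rose (20.8% of all tested did) and 1 fell (14.9% of all tested) of 12 measured, with a median change of 0.02, and 2 to 4 were called when 1 sample was left out. Orc4, a subunit of the origin recognition complex on arm 2R, lay at 8.15, 8.17 and 8.41 in the batch A controls and at 8.49 and 8.64 after JIL-1 RNAi. For batch B the values lay at 8.56 and 8.45 in the controls and at 8.82, 8.75 and 8.76 after JIL-1 RNAi. Every JIL-1 RNAi sample was above every control of its batch. Orc4 rose by 0.29 (1.23-fold, SE 0.06, limma adjusted p = 0.00632), and kept its call whenever 1 sample was left out.

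The other measured Orc genes did not pass. Orc2 changed by 0.22 (SE 0.09, limma adjusted p = 0.0878), Orc5 by 0.13 (SE 0.07, adjusted p = 0.181) and Orc1 by -0.26 (SE 0.11, adjusted p = 0.0775). Orc2 lay between 6.55 and 6.59 in the batch A controls and at 6.98 and 7.00 after JIL-1 RNAi. Within batch B the controls lay at 7.40 and 7.53 and the JIL-1 RNAi samples between 7.29 and 7.68. The groups were thus apart in batch A alone, where the change was 0.41 (SE 0.10, limma adjusted p = 0.0157). Orc1 lay at 7.18, 7.18 and 7.59 in the batch A controls and at 6.98 and 7.07 after JIL-1 RNAi. In batch B it lay at 8.28 and 7.88 in the controls and at 8.00, 7.80 and 7.72 after JIL-1 RNAi, with overlap. The call of Orc1 depended on the scaling, since limma's adjusted p was 0.0467 with arrays set to a common median and 0.0294 with quantile normalization. It was also 0.0394 without control replicate 5. Orc2 passed without JIL-1 RNAi replicate 5 (limma adjusted p = 0.0166) and without control replicate 5 (adjusted p = 0.0487).

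Mcm6, a subunit of the replicative helicase encoded on the X chromosome, fell. It lay at 10.57, 10.62 and 10.72 in the batch A controls and at 10.43 and 10.39 after JIL-1 RNAi. The batch B controls lay at 10.89 and 10.98 and the batch B JIL-1 RNAi samples at 10.81, 10.71 and 10.70. Every JIL-1 RNAi sample lay under every control of its batch. Mcm6 fell by 0.21 on the log2 scale, 1.16-fold lower (SE 0.05, limma adjusted p = 0.00987), and kept its call whenever 1 sample was left out. Mcm2 changed by -0.02, Mcm3 by -0.06 and Mcm5 by 0.03, with SE from 0.05 to 0.06 and limma adjusted p of 0.498 or higher. The Mcm4 gene, named dpa in the current annotation and not among the 26, changed by 0.11 (SE 0.05, adjusted p = 0.107).

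Mcm6 and Orc4 were also set against their partners within arrays. The pairs were chosen because these genes were called and their partners were not, so the differences are a description with no test. The difference of Mcm6 from the mean of Mcm2, Mcm3, Mcm5 and dpa was lower after JIL-1 RNAi by a log2 change of -0.23 (batch A, -0.28, and batch B, -0.17). The difference of Orc4 from the mean of Orc1, Orc2 and Orc5 was higher by 0.27 (batch A, 0.23, and batch B, 0.30). For both genes the groups did not overlap in either batch. A constant log2 shift of a whole array cancels in such a difference, but a scaling that depends on level, such as quantile normalization, need not.

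RnrL, the large subunit of ribonucleotide reductase on arm 2L, rose slightly. It lay between 11.30 and 11.44 in the batch A controls and at 11.51 and 11.55 after JIL-1 RNAi. For batch B the values lay at 11.61 and 11.63 in the controls and between 11.72 and 11.77 after JIL-1 RNAi. The groups were apart in both batches. RnrL rose by 0.14 (1.10-fold, SE 0.05, limma adjusted p = 0.0424), close to the threshold. The call was lost when any sample other than control replicate 3 or JIL-1 RNAi replicate 5 was left out, with limma's adjusted p up to 0.107, and it was also lost with arrays set to a common median (adjusted p = 0.0539).

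The sliding clamp PCNA, the licensing factor dup and the helicase loader Cdc6 did not pass. PCNA lay between 11.32 and 11.43 in the batch A controls and at 11.56 and 11.44 after JIL-1 RNAi, and between 11.12 and 11.28 in all 5 samples of batch B. The change of PCNA was 0.02 (SE 0.06, limma adjusted p = 0.8) and that of dup 0.02 (SE 0.06, adjusted p = 0.853). Cdc6 changed by 0.10 (SE 0.10, limma adjusted p = 0.475). The 95% interval was -0.11 to 0.15 for PCNA, -0.11 to 0.14 for dup and -0.12 to 0.32 for Cdc6.

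No cyclin, Cdk or E2F gene passed the threshold in the limma fit, 0 of 8 (35.7% of all tested), and none had an unadjusted p under 0.05 (45.9% of all tested). Their changes ran from -0.14 for CycB3, a mitotic B-type cyclin, to 0.30 for CycE, the cyclin that starts S phase with Cdk2. CycE on arm 2L lay at 9.77, 10.46 and 10.31 in the batch A controls and at 10.58 and 10.70 after JIL-1 RNAi. Within batch B the controls lay at 10.99 and 11.15 and the JIL-1 RNAi samples at 10.96, 11.28 and 11.40. The groups were apart in batch A, where control replicate 1 was far lower than the other controls, and overlapped in batch B. CycE had the widest interval of all 26, from -0.01 to 0.61 (SE 0.14, limma adjusted p = 0.123).

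The smallest p-values of this role were those of CycE, E2f2 and CycD. E2f2, a repressive E2F factor, changed by 0.10 (SE 0.05, limma adjusted p = 0.138). CycD, the growth-linked cyclin partner of Cdk4 on the X chromosome, changed by -0.12 (SE 0.06, adjusted p = 0.139). CycD lay between 8.68 and 8.89 in the batch A controls and at 8.65 in both JIL-1 RNAi samples. In batch B it lay at 9.08 and 9.11 in the controls and between 8.90 and 9.07 after JIL-1 RNAi. The groups of CycD and of E2f2 did not overlap in either batch, although neither gene passed the test. CycB, a mitotic cyclin, changed by 0.07, Cdk2 by 0.07, Cdk4 by 0.06 and Rbf by 0.10, with limma adjusted p between 0.198 and 0.508.

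Of 6 mitotic genes 1 rose, against 20.8% of all tested. Bub3, a spindle checkpoint protein encoded on arm 3R, lay at 11.60, 11.40 and 11.71 in the batch A controls and at 11.78 and 11.85 after JIL-1 RNAi. The batch B controls lay at 11.74 and 11.72 and the batch B JIL-1 RNAi samples at 11.98, 11.87 and 11.87. All JIL-1 RNAi samples were above the controls of their batch. Bub3 rose by 0.21 (1.16-fold, SE 0.06, limma adjusted p = 0.0279). The call was lost without JIL-1 RNAi replicate 1, 2 or 3 or control replicate 4 or 5, with limma's adjusted p from 0.0508 to 0.0815. Against the mean of Bub1 and mad2 within arrays, Bub3 was higher by 0.18, a description like that of Mcm6, and the groups overlapped in batch A. Bub1, a checkpoint kinase that acts with Bub3, changed by -0.02, mad2 by 0.09 and fzy by 0.11, with limma adjusted p of 0.224 or higher. The other 2 probe sets of fzy lay at the lower end of the scale and carried no information.

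The RNAi groups did not overlap in either batch for 6 of the 26 genes. JIL-1 RNAi was higher for Orc4, RnrL, E2f2 and Bub3 (4 genes, against 18.2% of all tested) and lower for Mcm6 and CycD (2 genes, against 13.4% of all tested).

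Because the dsRNA against JIL-1 differed between the batches, the change was also fitted within each. In batch A, 3 members were called higher (17.3% of all tested) and 1 lower (10.9% of all tested). These were Orc4 (0.32, limma adjusted p = 0.0314), Orc2, Rbf (0.21, adjusted p = 0.0418) and, on the lower side, Mcm6 (-0.23, adjusted p = 0.0387). Without JIL-1 RNAi replicate 1 or 2 none of the 26 was called in batch A, and without control replicate 2 or JIL-1 RNAi replicate 4 only 1 was. Without control replicate 1, 4 or 5 there were 2. In batch B no member was called in either direction by limma, where 7.44% of all tested were higher and 10.2% lower. There Orc4 changed by 0.27, Bub3 by 0.18, RnrL by 0.13 and Mcm6 by -0.19, and 1 member was called without control replicate 3. The direction was the same in both batches for 19 of the 26 genes, as for 74.9% of all tested. The difference between the batches' changes passed for none of the 26 and for 1.38% of all tested. At an unadjusted p under 0.05 in the limma fit it held for 2 of the 26 (14.8% of all tested), Orc2 (-0.39, limma adjusted p = 0.26) and Rbf (-0.22, limma adjusted p = 0.323), whose changes were larger in batch A.

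**Figure D3:**
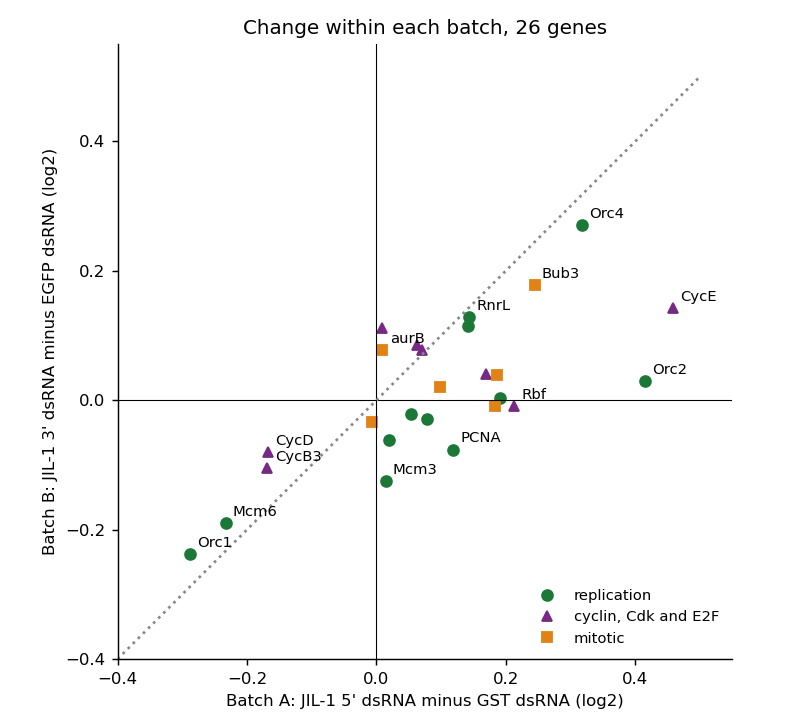
Change of each of the 26 genes in batch A (horizontal axis) and batch B (vertical axis), both log2 differences, by role; the dotted line marks equal changes. Orc4, Bub3 and RnrL are higher and Mcm6 and Orc1 lower in both batches, while Orc2 and Rbf lie near 0 in batch B.

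For most members the difference between batches was larger than that between RNAi groups. Between the control samples of the batches, which differ also in the control dsRNA, 18 of the 26 genes were higher in batch B (37.7% of all tested) and 1 was lower (24.7% of all tested). In total 19 of 26 passed, where 62.4% of all tested did, and 13 passed without control replicate 5. The difference was larger in size than the RNAi change for 22 of the 26, as for 73.3% of all tested. The median difference was 0.32 over the 26 and 0.10 over all tested. Batch, control dsRNA and culture cannot be told apart here.

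Cdc6 differed most, by 1.51 (SE 0.14, limma adjusted p = 2.31e-05). It lay at 6.12, 6.22 and 6.53 in the batch A controls and at 7.96 and 7.65 in the batch B controls. After JIL-1 RNAi Cdc6 lay at 6.35 and 6.61 in batch A and at 7.87, 7.83 and 7.72 in batch B, so all samples divided by batch. Bub1 differed by 1.35 (SE 0.09, limma adjusted p = 4.77e-06), and Mcm3 by 1.27 (SE 0.08, adjusted p = 2.95e-06). Bub1 lay between 7.73 and 8.02 in all batch A samples and between 9.16 and 9.30 in all batch B samples. Mcm3 lay between 8.16 and 8.25 in batch A and between 9.25 and 9.55 in batch B. Orc2 (0.89), CycE (0.89), CycB (0.77), Orc1 (0.76), Incenp (0.64) and Mcm2 (0.61) were higher in batch B as well. Cdk4 was the only member called lower (-0.22, limma adjusted p = 0.0141), and Cdk2 (-0.30) and PCNA (-0.13) did not pass.

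**Figure D4:**
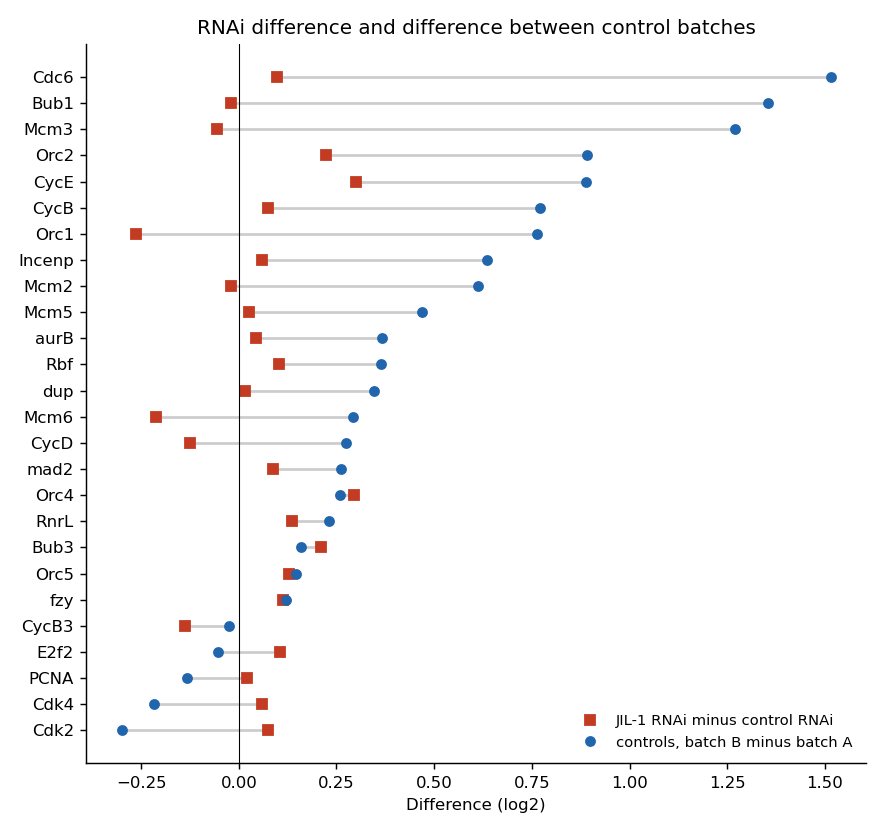
For each of the 26 genes, the log2 difference of JIL-1 RNAi minus control (red squares) and of batch B controls minus batch A controls (blue circles), joined by a grey line. The batch difference reaches 1.51 for Cdc6 while no RNAi difference exceeds 0.30 in size.

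Other genes of the cell cycle were taken from lists by function, and the counts in each stand against 20.8% rises and 14.9% falls among all tested. The share called ran from 0 to 31.0% over these lists, in each below the 35.7% of all tested. Of 29 further replication fork genes measured, 8 rose and 1 fell, with a median change of 0.05, as over all tested. Without JIL-1 RNAi replicate 2 only 3 were called (9 in the full set), where 1761 of all 6721 tested were (2397 in the full set). Mcm10, which helps start the replicative helicase, rose by 0.28 (SE 0.05, limma adjusted p = 0.00177). It lay between 8.13 and 8.25 in the batch A controls and at 8.49 and 8.43 after JIL-1 RNAi, and at 8.95 and 8.91 against 9.19, 9.28 and 9.15 in batch B. Prim1, the primase subunit, rose by 0.34 (SE 0.08, adjusted p = 0.00895) and Fen1, the flap nuclease, by 0.23 (SE 0.06, adjusted p = 0.0112). The groups of these 3 genes, named for their small p, were apart in both batches. On the higher side this held for 8 of the 29 and for 18.2% of all tested. The list of 17 further G1/S and dREAM genes also held Cdk5, Cdk7, CycC and CycH, which have other roles. Among the 17, fzr, which activates the anaphase-promoting complex in G1, rose by 0.17. Skp2, an F-box protein, fell by 0.23 on the log2 scale. Both lost their call when single samples were left out, fzr in 6 of 10 cases and Skp2 in 3. None of the 17 was called without control replicate 4 (1946 of all 6721 tested were) or 5 (1922). Without control replicate 2, 4 of the 17 were called (2262 of all tested).

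Of 19 genes of the passenger complex, spindle checkpoint and kinetochore 3 rose (20.8% of all tested) and 2 fell (14.9% of all tested). Without JIL-1 RNAi replicate 2 there were 2 calls (1761 over all 6721 tested), and without control replicate 5 there were 3 (1922 over all tested). Haspin, on arm 2R, had the largest change in size among the cell cycle genes measured here. In other species Haspin phosphorylates threonine 3 of histone H3 in mitosis, a mark that recruits the passenger complex with Aurora B. It lay at 8.65, 8.89 and 8.97 in the batch A controls and at 8.26 and 8.23 after JIL-1 RNAi. For batch B the values lay at 8.66 and 8.88 in the controls and at 6.55, 7.15 and 7.69 after JIL-1 RNAi. The groups were apart in both batches, and the controls of the batches overlapped. Haspin fell by 1.11 on the log2 scale, 2.16-fold lower (SE 0.24, limma adjusted p = 0.00594), and kept its call whenever 1 sample was left out, but not without the filter on dim probe sets (limma adjusted p = 0.0561). Within batches the change was -0.59 in A (SE 0.26, limma adjusted p = 0.123) and -1.64 in B (SE 0.26, adjusted p = 0.0026). The difference between these changes did not pass (limma adjusted p = 0.229).

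The other passenger complex subunits did not pass, with borr, the Borealin gene, at 0.13 (SE 0.07, limma adjusted p = 0.204) and Det, the Survivin gene, at -0.004 (SE 0.07, adjusted p = 0.969). Nnf1a, a kinetochore protein, rose by 0.30 (SE 0.05, adjusted p = 0.00146), and Zw10, a checkpoint protein of the kinetochore, fell by 0.25 on the log2 scale (SE 0.07, adjusted p = 0.0138), a call lost without JIL-1 RNAi replicate 2 (adjusted p = 0.0506). None of 4 genes of PP1, the phosphatase that removes the phosphate from serine 10 of histone H3, passed in the limma fit, and none had an unadjusted p under 0.05. Pp1-87B changed by 0.10, flw by 0.09, Pp1alpha-96A by 0.11 and the regulatory subunit sds22 by -0.02.

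Of 15 condensin and cohesin genes 3 rose, with 2 to 4 called when 1 sample was left out. Cap-H2, a condensin II subunit, rose by 0.50 (1.42-fold, SE 0.09, limma adjusted p = 0.00188). It lay at 6.62, 7.03 and 7.06 in the batch A controls and at 7.36 and 7.48 after JIL-1 RNAi, and at 6.30 and 6.41 against 6.81, 6.77 and 6.94 in batch B. All JIL-1 RNAi samples were above the controls of their batch. san, an acetyltransferase needed for sister chromatid cohesion, rose by 0.35 (SE 0.05, adjusted p = 0.000833). wapl, which releases cohesin, rose by 0.20 (SE 0.06, adjusted p = 0.0306), with the call lost in 7 of the 10 fits that left out 1 sample.

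Of 8 measured genes in the list of the anaphase-promoting complex, which also holds the ubiquitin-conjugating enzyme vih, 1 rose. This was ida, a subunit gene on arm 3L, with 0.61 (1.52-fold, SE 0.12, limma adjusted p = 0.00319). It lay at 5.07, 5.28 and 5.59 in the batch A controls and at 6.01 and 6.26 after JIL-1 RNAi, and at 6.56 and 6.49 against 7.05, 6.88 and 6.84 in batch B. The groups were apart within each batch, and the batches were farther apart than the groups (1.21 between controls). Of 8 checkpoint kinase and Cdk1 regulator genes tws, a subunit of the phosphatase PP2A, rose by 0.33 (SE 0.09, adjusted p = 0.0217) and tefu, the ATM kinase, by 0.30 (SE 0.09, adjusted p = 0.0277). Of 14 spindle and cytokinesis genes pbl, a gene needed for cytokinesis, rose by 0.19 and msps, a microtubule protein, by 0.20. Of these, tws lost its call without JIL-1 RNAi replicate 2, tefu in 4 of the 10 fits that left out 1 sample, pbl in 5 and msps in 6. None of the checkpoint kinase list was called without JIL-1 RNAi replicate 2, and none of the spindle list without JIL-1 RNAi replicate 2 or 3 or control replicate 4 or 5. Over all 6721 tested, these 4 fits gave 1761, 2036, 1946 and 1922 calls in that order, against 2397 in the full fit.

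**Figure D5:**
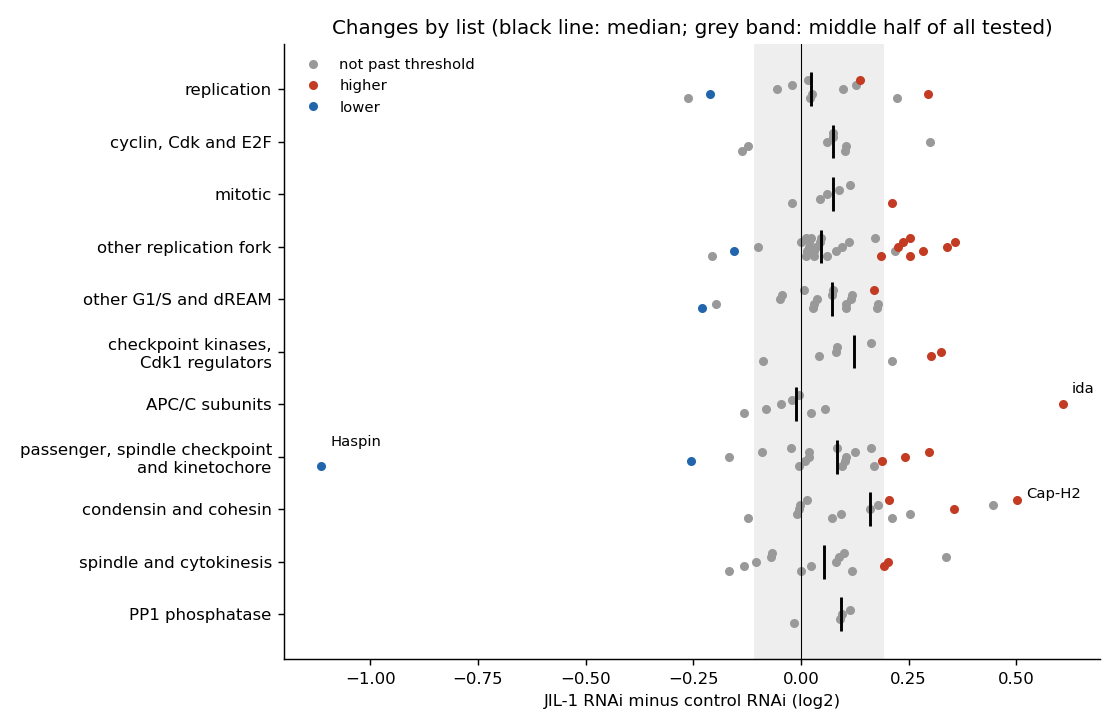
Changes of the measured genes of each list (points, log2, JIL-1 RNAi minus control RNAi), with the list median as a black line and the middle 50% of all tested as a grey band; red and blue mark genes past the threshold. Most genes lie inside or close to the band, and Haspin, ida and Cap-H2 lie farthest out.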

How the data were processed

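RNA of 10 samples was hybridised to single-colour arrays. The authors deposited log2 values made with GCRMA, per the submitters' processing notes. This method removes background estimated from probe sequence, normalizes arrays and summarises probe sets. No source used here gives its version or says if both batches were normalized as one. Per the labels' protocols, dsRNA (10 µg) was added for 1 h without serum, cells were divided on day 3, and 1 of 2 extraction methods was used, with no record of which for any sample. Values ran from 2.20 to 15.65, which fits log2.

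Genes were assigned by the platform annotation, and current symbols and arms by the RefSeq gene table of Release 6. Of 18952 probe sets, 13647 had 1 gene, of which 13544 matched by gene ID. After removal of 183 array controls, each gene was represented by its brightest probe set over all samples, and the 6721 with a mean above 4 entered limma 3.58.1 (R 4.3.3). The model had terms for group and batch, with two-sided p-values adjusted by Benjamini-Hochberg and a threshold of 0.05. A fit of 4 means gave changes within batches. The fit with terms for group and batch was tested on simulated data. At a log2 size of 0.25 it recovered 15 of 50 changes, and at 0.5 it recovered 42 of 50. Those data held 50 changes at each log2 size of 0.25, 0.5, 1 and 2 among 6721, and the fit made 6 false calls. The adjustment depends on how many changes there are, and 2397 of 6721 were called in the arrays. The share of changes recovered in the arrays was therefore not tested.

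The members and lists were chosen with earlier results of these data known. Named genes were JIL-1, aurB, all called members, the extremes of each role and up to 3 called genes with the smallest p per further list. Uncalled partners of called genes (such as Orc5, Mcm2, dpa and PCNA) and genes with large differences between batches were added after their values were seen. No samples were duplicates, since samples of the same batch and group differed with an SD of 0.155 to 0.264. Alternatives are given in the closing section.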

Additional observations from a re-analysis of the deposited data

How the results depend on the processing

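Of the 4 calls among the 26 genes, those of RnrL and Bub3 are near the threshold that 10 arrays allow. Values of members lay between 6.12 and 12.08, far from the lower end of the scale. Without a term for batch no member was called (0 higher, 0 lower, 0 in each role), where 501 of all 6721 tested were (2397 with the term). The wider lists then gave 0 calls except 1 among passenger, checkpoint and kinetochore genes. In that fit JIL-1 changed by -1.26, and Mcm2 (0.093), Mcm3 (0.18), PCNA (-0.02) and Bub1 (0.25) changed sign. With the replicate number as a block beside batch, 1 member was called (1 higher, in the replication role, 0 lower, 0 mitotic). The lists gave 2 replication fork, 0 G1/S, 2 kinetochore and 0 spindle genes, where 1203 of all 6721 tested were called. Replicate number 3 joins samples of different batches. Deviations from group means, taken without a term for batch, correlated at 0.67 to 0.87 for the 4 numbers whose samples share a batch. They correlated at -0.77 for replicate 3, and 1 of 5 numbers matched best with its own. Since the batch difference remains in these deviations, they cannot tell if samples are paired by number within a batch. No filter on dim probe sets gave 0 mitotic calls, 0 calls in batch A, and 5 replication fork, 0 G1/S, 0 checkpoint, 2 kinetochore and 0 spindle genes. With arrays set to a common median there were 2 lower members (2 in replication, with 1 higher) and 1 call in batch B, and dup changed by -0.00038. Quantile normalization gave 2 lower members, both in replication, and 1 call in batch B. Array weights gave 2 lower, both in replication, 1 call in batch A and 3 in batch B, 4 G1/S and 4 spindle genes, with dup at -0.040 and PCNA at -0.028. The robust fit with a variance trend gave 1 G1/S gene, and batch as a random block 1 spindle gene. Without probe sets of the s, x and a types the G1/S list gave 0, and checkpoint, cohesin and spindle lists 1 each. An adjusted p under 0.1 gave 2 lower, 5 replication calls, 4 G1/S and 5 cohesin genes. With a 1.5-fold minimum 0 members and 0 genes of most lists were called, with 1 kinetochore and 1 anaphase-promoting gene. The cause of these shifts was not tested.

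When 1 sample was left out, the calls among members ranged from 2 to 5 (1 to 4 higher, 1 to 2 lower), in replication from 2 to 4 (1 to 3 higher, 1 to 2 lower), in mitotic genes from 0 to 1, in batch A from 0 to 4 and in batch B from 0 to 1. Checkpoint genes ranged from 0 to 2, kinetochore 2 to 6, G1/S 0 to 4, replication fork 3 to 9 and spindle 0 to 3. Calls over all 6721 tested ranged from 1761 to 2262 in these fits. Bub1 ranged from -0.058 to 0.0088, Mcm2 from -0.051 to 0.011, PCNA from -0.024 to 0.056 and dup from -0.017 to 0.046. The median change of the 26 ranged from 0.050 to 0.077, and cyclin, Cdk and E2F genes had 0 calls in these fits. aurB had the same direction and passed in none of 22 alternatives.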
